A study of Homo sapiens with 4 samples.

Results

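Kinesins, centromere proteins and mitotic regulators were followed in HCT116, an established human colorectal carcinoma line, after depletion of ALKBH5, an enzyme that takes the N6-methyladenosine mark off RNA. The set holds every protein-coding gene of the deposited table whose symbol starts with KIF and a digit or with CENP, together with TPX2, ASPM, AURKA, AURKB, BUB1, BUB1B, PLK1, CCNB1, CDK1 and TOP2A, which gave 71 of 28391 genes. RNA was sequenced, after preparation with an mRNA kit, from 2 libraries labelled shALKBH5 with the genotype ALKBH5 knockdown and from 2 libraries labelled shNC, a hairpin control, with the genotype WT. All were grown in medium with 10% fetal bovine serum, and 1.3 µg of total RNA went into each library. The labels give neither the number of hairpin sequences nor how long they were expressed, nor do they tell whether both libraries of a group stem from different cultures. Each p-value therefore covers just the variation among these 4 libraries, which may be technical.

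Kinesins are motor proteins that walk along microtubules or take them apart. Some build and drive the mitotic spindle, and others carry vesicles, organelles or ciliary cargo in cells at any stage. CENP proteins mark the centromere and hold the inner kinetochore on it. The mitotic kinases and cyclin B time entry into and exit from mitosis, and many of these genes are transcribed mainly in G2 and M phase, under the repressor DREAM and the activators B-MYB and FOXM1, through promoter elements called CHR and CCAAT.

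The reads assigned to genes numbered from 16884473 to 17047446 in the shALKBH5 libraries and from 16398604 to 17493141 in the shNC libraries. ALKBH5 was at 312 and 270.2 normalised counts in the shALKBH5 libraries, against 1905 and 1941 in the shNC libraries, in the direction the labels give. Of 9 colon epithelial markers, 5 (EPCAM, KRT8, KRT18, CDH1 and CDX2) were above 100 normalised counts in every library, while VIL1, LGALS4 and CDH17 did not exceed 13.3. The summed level of the 9 was 70304 to 72067 in shALKBH5 and 78214 to 80148 in shNC libraries, and KRT18 and KRT8, which make up most of it, fell (log2 fold changes -0.30 and -0.15). EPCAM, CDX2 and CDH1 were at 0.18, 0.32 and -0.19 on that scale and did not pass in limma-trend, while EPCAM was higher and CDH1 lower in edgeR (adjusted p 0.00342 and 0.00758). The 5 fibroblast markers of the table, of 8 listed, summed to 860 to 883 in shALKBH5 and 915 to 930 in shNC libraries, nearly all COL1A1. The 4 leukocyte markers of the table, of 6 listed, summed to 7.09 to 8.01 in shALKBH5 and 14.3 to 22.5 in shNC libraries. The part of these markers in the results was not tested. Values below are normalised counts, meaning the reads of a gene after division by its library's size factor. Fold changes are shALKBH5 over shNC on the log2(value + 1) scale, with a standard error (SE), and a gene rose or fell where limma-trend gave an adjusted p under 0.05 over all 25887 genes tested.

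All 71 members passed the filter on low values. The regulator TPX2 and the motor KIF20A rose, and ASPM, CENPA and the motors KIF2A, KIF14, KIF3B, KIF5C and KIF16B fell, while 62 members did not pass. The changes were small, with log2 fold changes among these 9 from -0.62 in KIF16B to 0.29 in KIF20A. Of all genes tested, 3.86% passed in either direction (1.98% rose and 1.88% fell), against 12.7% of the members. Of all calls 51.3% were higher, and 38.2% with the libraries scaled to equal totals, where 4 members rose and 12 fell. Genes with few reads seldom pass, and among the 12540 genes averaging 50 normalised counts or more the share was 7.9% (4.04% rose and 3.86% fell), against 9 of 64 members (14.1%). Fewer cells in mitosis and less RNA per cell cannot be told apart in bulk RNA. Calls in limma-trend depended on both shNC libraries and on its mean-variance trend. Without the trend it passed 0 members (16 at an unadjusted p under 0.05). In edgeR on the recovered reads 7 members were higher and 16 lower (10.4% of its genes in each direction). With either shNC library left out, the 9 members that rose or fell kept their sign.

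The direction leaned downward. The median log2 fold change was -0.09 over the members, against -0.004 over all genes tested, and 46 of 71 members were negative. In 37 members both shALKBH5 libraries lay below both shNC libraries, in 12 they lay above, and in 22 the groups overlapped. Over all genes tested, 25.6% lay below and 25.0% above in this way, and among genes averaging 50 or more 30.8% and 32.9%, where 33 (51.6%) and 12 (18.8%) of 64 members did. In the authors' deposited table, 6 members are higher and 10 lower past an adjusted p of 0.05, against 2.79% and 2.43% of all its 28391 genes. DESeq2 on the recovered reads passed as many members. It passed 793 higher and 691 lower genes in all, the same numbers as the deposited table, and so is no separate evidence. Of the 12428 genes DESeq2 gave an adjusted p, 6.38% were higher and 5.56% lower.

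**Figure D1:**
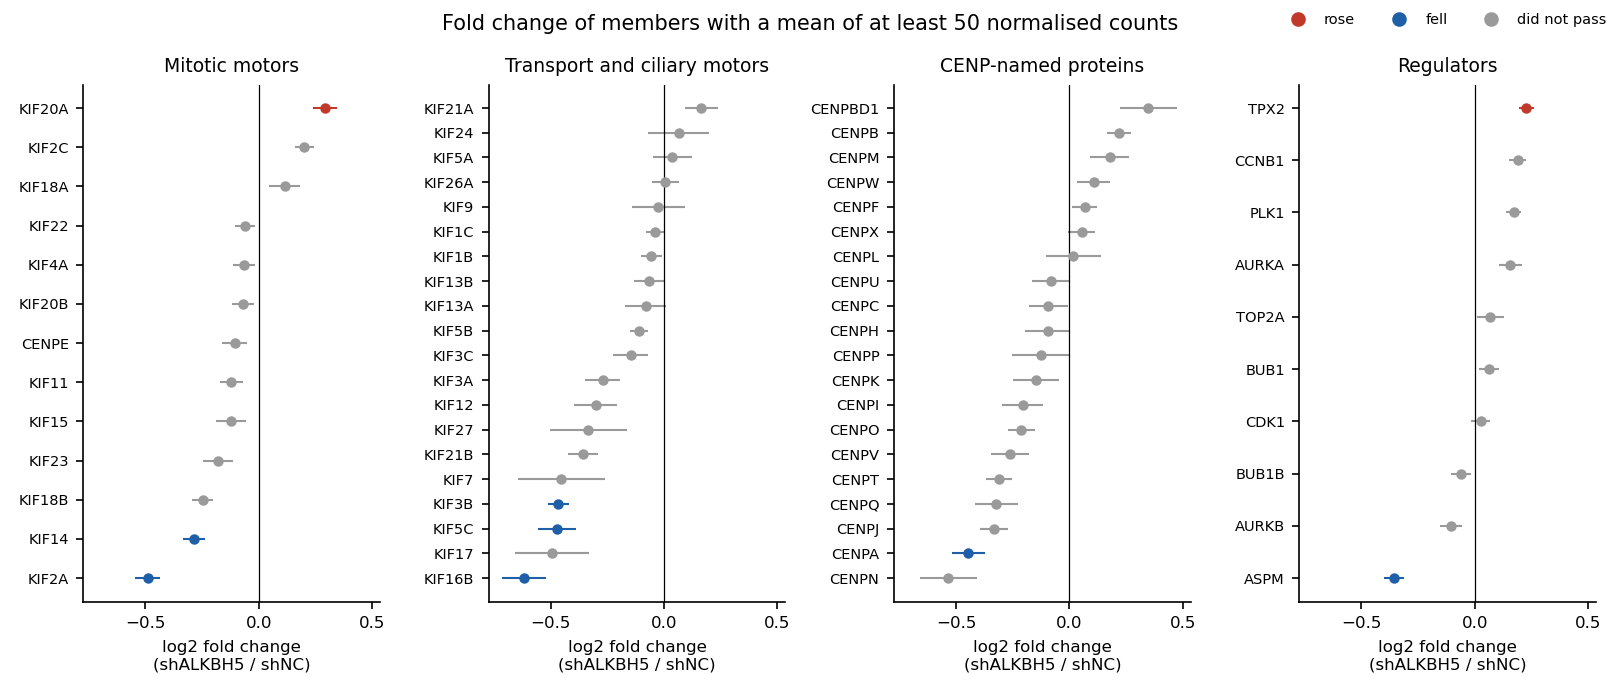
Log2 fold change (shALKBH5 over shNC) with its SE for 63 members averaging 50 normalised counts or more, in panels by role, with members that rose in red, those that fell in blue and the rest in grey. Most motors and CENP-named genes lie left of 0, whereas 7 of 10 regulators lie right of it (6 with libraries scaled to equal totals).

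Of the 10 regulators, TPX2 rose and ASPM fell, where 4.04% of all genes averaging 50 or more rose and 3.86% fell. TPX2, which nucleates spindle microtubules and activates Aurora A, was at 5657 and 5509 normalised counts in the shALKBH5 libraries, against 4759 and 4777 in the shNC libraries. Both shALKBH5 values were above both shNC values, a log2 fold change of 0.23 ± 0.0325 (SE; limma-trend adjusted p 0.0321), or 1.17-fold. ASPM, a spindle pole protein best known from inherited microcephaly, was at 1489 and 1507 in the shALKBH5 libraries, against 1962 and 1875 in the shNC libraries. The groups did not overlap, and the log2 fold change was -0.36 ± 0.0443 (limma-trend adjusted p 0.0232). TPX2 lies on chromosome 20 from 31739271 to 31801805 (plus strand) and ASPM on chromosome 1 from 197084128 to 197146694 (minus strand, GRCh38).

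The kinases and cyclin B moved little. CCNB1, the cyclin that activates CDK1 at mitotic entry, was at 4917 and 4728 in the shALKBH5 libraries, against 4287 and 4174 in the shNC libraries. PLK1, a kinase of mitotic entry and kinetochore attachment, was at 3865 and 3909 in the shALKBH5 libraries, against 3483 and 3417 in the shNC libraries. In both genes the shALKBH5 libraries lay above the shNC libraries, but the log2 fold changes of 0.19 and 0.17 missed the threshold (limma-trend adjusted p 0.0617 and 0.0611), and edgeR gave adjusted p-values of 0.00338 and 0.00741. In DESeq2 the adjusted p-values of CCNB1 and PLK1 were 0.00519 and 0.0216. AURKA, the Aurora kinase that TPX2 activates, was at 1641 and 1739 in the shALKBH5 libraries, against 1488 and 1542 in the shNC libraries. Its log2 fold change was 0.16 (adjusted p 0.153 in limma-trend, 0.0498 in edgeR and 0.215 in DESeq2). AURKB, the kinase of the chromosomal passenger complex, was at 1845 and 1893 in shALKBH5, against 2074 and 1949 in shNC libraries, with the opposite sign (-0.11; limma-trend adjusted p 0.272). The groups did not overlap in either Aurora gene.

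CDK1, the kinase partner of cyclin B, was at 3178 and 3261 in the shALKBH5 libraries, against 3242 and 3082 in the shNC libraries, and the groups overlapped. Its log2 fold change of 0.03 ± 0.0417 became -0.01 with the libraries scaled to equal totals. TOP2A, the topoisomerase that untangles sister chromatids, also overlapped (4587 and 4380 in shALKBH5, against 4514 and 4048 in shNC), as did the checkpoint kinase gene BUB1 (2943 and 3115 in shALKBH5, against 2951 and 2844 in shNC). BUB1B, which encodes the checkpoint protein BUBR1, was at 1861 and 1837 in shALKBH5, against 1874 and 1984 in shNC libraries, a difference of -0.06 on the log2 scale. The median over the 10 regulators was 0.07, and 0.03 with equal totals.

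**Figure D2:**
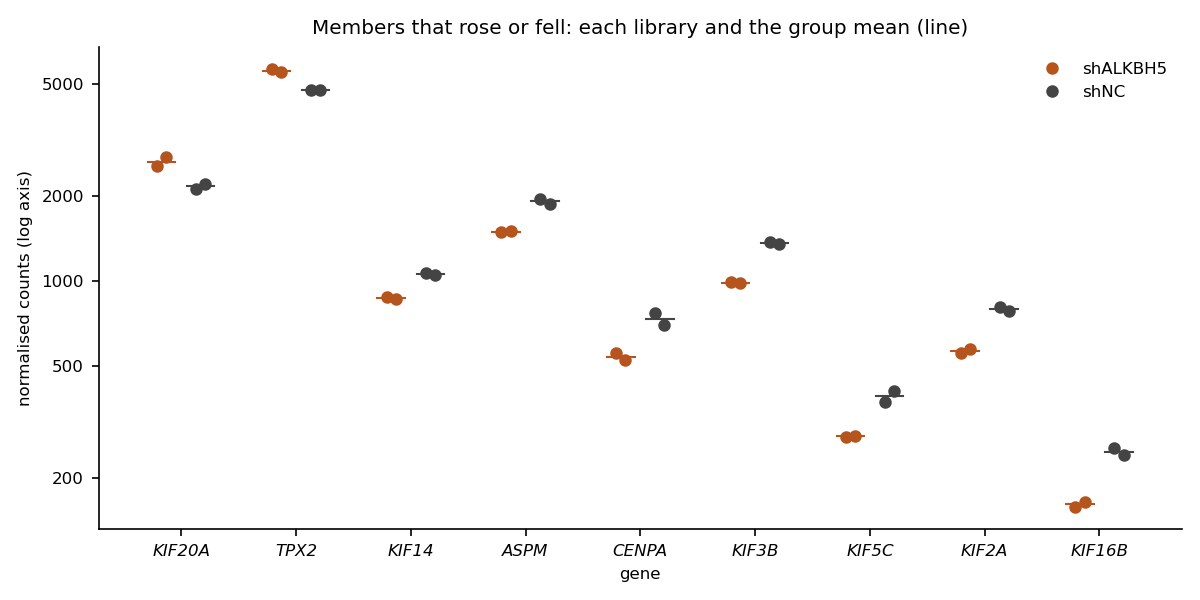
Normalised counts (log axis) of the 9 members that rose or fell, with 1 point per library and a line at the group mean, shALKBH5 left of shNC in each gene. The groups do not overlap in any of the 9, and KIF20A and TPX2 are the ones higher in shALKBH5.

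Of the 14 mitotic motors, CENPE among them, KIF20A rose and KIF2A and KIF14 fell. Among all genes averaging 50 or more, 4.04% rose and 3.86% fell. KIF20A, a motor of the central spindle needed for cytokinesis, was at 2562 and 2747 normalised counts in the shALKBH5 libraries, against 2117 and 2216 in the shNC libraries. The log2 fold change was 0.29 ± 0.0511 (limma-trend adjusted p 0.0476), with no overlap. KIF14, a midbody motor that acts with PRC1 and citron kinase in the same process, was at 881 and 862 in the shALKBH5 libraries, against 1073 and 1049 in the shNC libraries, and so lay lower in both (log2 fold change -0.28 ± 0.0487; limma-trend adjusted p 0.0457). KIF20A lies on chromosome 5 from 138178719 to 138187715 (plus strand) and KIF14 on chromosome 1 from 200551497 to 200620734 (minus strand). On the other strand KIF20A overlaps CDC23 and BRD8, which averaged 974 and 1122 normalised counts. Their log2 fold changes were 0.05 and 0.01, and they did not pass.

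The microtubule depolymerases KIF2A and KIF2C are close paralogs, KIF2A acting at spindle poles and also in neurons and KIF2C at centromeres. KIF2A was at 558 and 573 in the shALKBH5 libraries, against 808 and 783 in the shNC libraries, a log2 fold change of -0.49 ± 0.0563 (adjusted p 0.0202 in limma-trend). KIF2C was at 2948 and 2902 in the shALKBH5 libraries, against 2485 and 2603 in the shNC libraries, with a log2 fold change of 0.20 ± 0.0407 that did not pass (adjusted p 0.064 in limma-trend). Both genes separated the groups, in opposite directions. KIF2A lies on chromosome 5 from 62306162 to 62537249 (plus strand). It overlaps IPO11 on the same strand and DIMT1 on the other, which had log2 fold changes of 0.12 and -0.06 and did not pass. The sources at hand do not state a strand setting for the counting, without which reads of genes on opposite strands cannot be told apart. Such a setting would not separate KIF2A from IPO11.

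The other mitotic motors did not pass in limma-trend, and of them KIF18B, KIF2C and KIF23 passed in edgeR (adjusted p 0.00145, 0.00397 and 0.0232) and KIF18B and KIF2C in DESeq2. In edgeR 10.4% of its genes passed in each direction. DESeq2 had 6.38% higher and 5.56% lower of the genes it gave an adjusted p. KIF18B, a depolymerase of astral microtubules, came closest, at 1753 and 1656 in shALKBH5, against 2016 and 2031 in shNC libraries (log2 fold change -0.25; limma-trend adjusted p 0.053). KIF23, the motor of centralspindlin, had a log2 fold change of -0.18, KIF11, which pushes spindle poles apart, of -0.12, KIF15 of -0.12, CENPE, which moves chromosomes to the spindle equator, of -0.11, and KIF18A, which limits chromosome oscillation, of 0.11. The chromokinesin genes KIF4A and KIF22 were at -0.07 and -0.06 and KIF20B at -0.07. KIF4B, an intronless copy of KIF4A, had 2.03 and 4.003 normalised counts in shALKBH5, against 8.56 and 4.09 in shNC libraries, and its reads cannot be told from those of KIF4A with certainty. The median over the 14 was -0.11, and 10 of them (71.4%) lay lower in both shALKBH5 libraries and 3 (21.4%) higher. Over all genes tested 25.6% lay lower and 25.0% higher, and among those averaging 50 or more 30.8% and 32.9%.

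Promoters of genes transcribed in G2 and M phase often hold CHR and CCAAT elements. RefSeq windows (GRCh38.p14) from 250 bases before to 50 bases after the start were at hand for 57 of the 71 members, several windows for 10 of them, and none for TPX2 or AURKA. Searched on both strands, the CHR core TTTGAA stood in 20 of 57 members (35.1%), against 15.2% of 35116 RefSeq windows of the same length. CCAAT stood in 34 members (59.6%), against 34.6% of windows, and both motifs together in 17 members (29.8%), against 5.90%. A match of one motif cannot lie inside a match of the other. A member counted as a holder if any of its windows held the motif, while the RefSeq share is per single window. The 10 members with several windows therefore had more sequence in which to match. Among those 10, TTTGAA was found in CDK1 alone, in each of its windows, but CCAAT in all except KIF1A and KIF9. The part of the added windows in the CCAAT share was not tested. By role, 19 of 38 members outside the transport motors held TTTGAA, the readthrough gene CENPS-CORT left aside, which holds neither motif, and 1 of 18 transport or ciliary motors did (KIF5B).

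The windows of the 8 members that rose or fell and have one, and of CCNB1 and PLK1 near the threshold, are given so that the arrangement can be read, with TTTGAA and CCAAT, on either strand, in capitals. PLK1, CENPA, ASPM and KIF14 hold both motifs, KIF20A, CCNB1 and KIF3B hold CCAAT and no exact TTTGAA, and KIF2A and KIF16B hold neither. Of the 2 windows of KIF5C, the upstream one holds CCAAT and the downstream one neither motif. KIF20A is at chr5:138178862-138179161 (plus strand), CCNB1 at chr5:69166900-69167199 (plus strand), PLK1 at chr16:23678639-23678938 (plus strand), CENPA at chr2:26785806-26786105 (plus strand), ASPM at chr1:197146620-197146919 (minus strand), KIF14 at chr1:200620702-200621001 (minus strand), KIF2A at chr5:62305956-62306255 (plus strand), KIF3B at chr20:32277401-32277700 (plus strand), KIF16B at chr20:16573399-16573698 (minus strand) and KIF5C at chr2:148874977-148875276 (plus strand) (upstream) and chr2:148947625-148947924 (plus strand) (downstream), each written 5′ to 3′ in the direction of the gene.
KIF20A: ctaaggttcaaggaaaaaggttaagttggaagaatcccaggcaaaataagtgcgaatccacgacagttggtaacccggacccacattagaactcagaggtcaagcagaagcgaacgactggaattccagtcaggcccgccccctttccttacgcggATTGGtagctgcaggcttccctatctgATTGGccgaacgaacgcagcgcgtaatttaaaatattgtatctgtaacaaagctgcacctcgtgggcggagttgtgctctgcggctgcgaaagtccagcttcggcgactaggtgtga
CCNB1: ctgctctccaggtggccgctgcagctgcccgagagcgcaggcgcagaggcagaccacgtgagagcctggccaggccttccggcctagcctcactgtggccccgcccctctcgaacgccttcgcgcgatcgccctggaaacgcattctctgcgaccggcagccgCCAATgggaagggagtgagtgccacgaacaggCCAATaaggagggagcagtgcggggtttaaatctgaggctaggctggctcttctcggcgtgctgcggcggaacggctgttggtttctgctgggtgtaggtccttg
PLK1: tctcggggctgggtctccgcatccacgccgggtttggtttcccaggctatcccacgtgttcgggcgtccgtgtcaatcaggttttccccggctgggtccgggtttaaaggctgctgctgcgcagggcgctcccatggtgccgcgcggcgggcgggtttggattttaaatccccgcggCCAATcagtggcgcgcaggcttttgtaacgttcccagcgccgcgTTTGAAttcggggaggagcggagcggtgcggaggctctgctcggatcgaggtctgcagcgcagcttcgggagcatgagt
CENPA: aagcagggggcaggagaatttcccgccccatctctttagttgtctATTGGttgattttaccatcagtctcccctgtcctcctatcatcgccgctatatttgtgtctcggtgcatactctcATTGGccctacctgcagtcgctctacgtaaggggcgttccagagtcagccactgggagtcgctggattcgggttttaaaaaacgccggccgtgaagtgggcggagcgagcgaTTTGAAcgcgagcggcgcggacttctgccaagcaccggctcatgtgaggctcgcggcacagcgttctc
ASPM: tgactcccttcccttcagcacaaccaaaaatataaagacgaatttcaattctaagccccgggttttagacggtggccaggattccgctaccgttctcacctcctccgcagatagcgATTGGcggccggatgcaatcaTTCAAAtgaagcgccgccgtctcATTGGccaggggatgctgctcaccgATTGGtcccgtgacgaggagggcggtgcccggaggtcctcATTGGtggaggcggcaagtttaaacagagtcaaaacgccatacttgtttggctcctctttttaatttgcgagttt
KIF14: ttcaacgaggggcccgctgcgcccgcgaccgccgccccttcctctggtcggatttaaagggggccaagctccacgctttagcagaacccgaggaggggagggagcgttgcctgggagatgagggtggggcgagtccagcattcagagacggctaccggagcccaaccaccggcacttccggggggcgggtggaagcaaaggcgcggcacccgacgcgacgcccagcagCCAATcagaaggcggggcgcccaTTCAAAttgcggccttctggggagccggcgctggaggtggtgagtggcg
KIF2A: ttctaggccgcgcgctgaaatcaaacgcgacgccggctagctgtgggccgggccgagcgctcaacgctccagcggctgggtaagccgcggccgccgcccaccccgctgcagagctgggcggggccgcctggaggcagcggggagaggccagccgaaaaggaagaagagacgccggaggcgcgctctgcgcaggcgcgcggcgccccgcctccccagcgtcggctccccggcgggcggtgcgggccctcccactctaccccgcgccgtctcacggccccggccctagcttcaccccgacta
KIF3B: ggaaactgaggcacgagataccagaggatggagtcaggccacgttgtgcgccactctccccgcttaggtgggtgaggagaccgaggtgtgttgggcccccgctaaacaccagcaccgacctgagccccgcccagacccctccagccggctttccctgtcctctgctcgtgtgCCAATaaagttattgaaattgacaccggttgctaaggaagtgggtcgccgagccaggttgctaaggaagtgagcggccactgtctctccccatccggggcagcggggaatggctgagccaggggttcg
KIF16B: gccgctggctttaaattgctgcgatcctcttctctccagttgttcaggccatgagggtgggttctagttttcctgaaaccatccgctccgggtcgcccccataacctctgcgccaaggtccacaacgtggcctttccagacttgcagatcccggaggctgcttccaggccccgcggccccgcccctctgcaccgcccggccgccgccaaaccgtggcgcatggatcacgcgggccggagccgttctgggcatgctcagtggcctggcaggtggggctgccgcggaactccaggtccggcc
KIF5C upstream: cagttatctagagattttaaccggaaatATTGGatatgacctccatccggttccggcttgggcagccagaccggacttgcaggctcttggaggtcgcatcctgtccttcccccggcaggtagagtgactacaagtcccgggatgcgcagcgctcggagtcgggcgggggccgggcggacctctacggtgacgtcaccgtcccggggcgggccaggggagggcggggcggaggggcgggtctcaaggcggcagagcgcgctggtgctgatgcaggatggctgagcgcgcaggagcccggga
KIF5C downstream: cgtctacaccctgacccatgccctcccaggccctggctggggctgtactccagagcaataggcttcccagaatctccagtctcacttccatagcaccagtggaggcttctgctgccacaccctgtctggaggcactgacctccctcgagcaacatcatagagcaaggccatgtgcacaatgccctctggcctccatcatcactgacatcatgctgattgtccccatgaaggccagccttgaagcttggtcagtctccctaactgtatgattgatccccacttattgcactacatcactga

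Counted from the RefSeq start of each window, the TTTGAA of CENPA begins at -18, that of PLK1 at -29 and that of ASPM, on the opposite strand, at -113. These starts need not be those of the deposited table, where CENPA begins at 26764289 and PLK1 at 23677656, upstream of their windows. To compare what surrounds the element in other members, 5 sites are given as 28 bases with TTTGAA in capitals. BUB1B is at chr15:40161035-40161062, KIF4A at chrX:70290059-70290086, its intronless copy KIF4B at chr5:155013747-155013774 and KIF23 at chr15:69414283-69414310, all on the plus strand, and KIF18B at chr17:44947755-44947782 on the minus strand.
BUB1B: ggaccgttaaaTTTGAAacttggcggct
KIF4A: tccgggacggaTTTGAAacttggcggtt
KIF4B: tctgggagggaTTTGAAacttggcggtt
KIF23: tgattggcccgTTTGAAatgcgccaggc
KIF18B: cgcccggctaaTTTGAAcgcaaggcgcc
After TTTGAA, BUB1B, KIF4A and KIF4B share their next 9 bases.

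As a description, members with TTTGAA had a median log2 fold change of -0.12 (20 members, 0 rose and 3 fell), and those without it -0.11 (37 members, 1 rose and 4 fell). These groups differ in role, since 1 of 18 transport or ciliary motors holds TTTGAA, and medians within a role were not compared. Holders of both motifs ranged from -0.84 in KIF4B and -0.53 in CENPN to 0.17 in PLK1. These matches describe letters and show no binding.

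Of the 17 inner centromere genes, CENPA fell (5.88%), near the 3.86% of all genes averaging 50 or more that fell. CENPA, the histone H3 variant that marks centromeric chromatin, was at 555 and 524 normalised counts in the shALKBH5 libraries, against 771 and 702 in the shNC libraries. The groups did not overlap, and the log2 fold change was -0.45 ± 0.0727 (limma-trend adjusted p 0.0415), or 1.36-fold lower. CENPA lies on chromosome 2 from 26764289 to 26801067 (plus strand) and overlaps SLC35F6 on the same strand, which was at 0.07 on the log2 scale and did not pass. CENPN, which reads CENP-A nucleosomes, was at 441 and 544 in the shALKBH5 libraries, against 766 and 658 in the shNC libraries. Its mean was lower by more (-0.53 ± 0.126), but the libraries of each group differed widely and it did not pass (limma-trend adjusted p 0.088; edgeR 0.000523). CENPN overlaps CMC2 on the other strand, at -0.14 on the log2 scale, and AC092718.4 on the same strand, at -0.87.

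CENPT, which links centromeric DNA to the outer kinetochore, was at 745 and 699.6 in the shALKBH5 libraries, against 904 and 889.9 in the shNC libraries, and lay just outside the threshold (-0.31 ± 0.0571; limma-trend adjusted p 0.0521). CENPB, which binds a sequence box in alpha satellite DNA, went the other way, at 2522 and 2440.0 in shALKBH5, against 2049 and 2216 in shNC libraries (0.22 ± 0.0518; limma-trend adjusted p 0.088). Both CENPT and CENPB passed in edgeR (adjusted p 0.00338 and 0.00418) and in DESeq2 (adjusted p 0.0409 and 0.0228). Over all genes, 20.8% passed in edgeR and 11.9% of those DESeq2 gave an adjusted p, either direction. CENPC, the other reader of CENP-A nucleosomes, overlapped between groups, at 419 and 468 in shALKBH5, against 492 and 455 in shNC libraries. Among subunits of the constitutive network, CENPQ had a log2 fold change of -0.32, CENPO of -0.21, CENPI of -0.21, CENPK of -0.15, CENPP of -0.13, CENPH of -0.10 and CENPU of -0.08, while CENPM was at 0.18, CENPW at 0.11, CENPX at 0.05 and CENPL at 0.02. These 11 genes did not pass in limma-trend or edgeR. CENPS was read at 35.5 and 43.0 in shALKBH5, against 41.9 and 35.8 in shNC libraries, and shares exons with the readthrough gene CENPS-CORT, which had at most 4.09. The median over the 17 was -0.10.

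Other genes with a CENP name have other places of work, and 0 of 4 passed in limma-trend or DESeq2. In edgeR 2 passed (20.8% of its genes did), and 3 had an unadjusted limma-trend p under 0.05 (21.4% of all genes tested did). CENPJ, a centriole protein, separated the groups, at 433 and 443 in shALKBH5, against 543 and 561 in shNC libraries (-0.33 ± 0.0627; limma-trend adjusted p 0.0559). CENPF, a large protein of the outer kinetochore and a common proliferation marker, overlapped, at 4833 and 4488 in shALKBH5, against 4612 and 4282 in shNC libraries. CENPV was at -0.26 and CENPBD1 at 0.35 on the log2 scale.

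Of the 24 transport and ciliary motors, KIF3B, KIF5C and KIF16B fell in limma-trend, 0 rose and 21 did not pass. In edgeR 6 were lower and 0 higher, with KIF21B, KIF3A and KIF19 added (adjusted p 0.00531, 0.038 and 0.0463), and in DESeq2 3 were lower. Over all genes, 1.88% fell in limma-trend (3.86% of those averaging 50 or more). In edgeR 10.4% of its genes were lower, and in DESeq2 5.56% of those it gave an adjusted p. KIF3B, a subunit of the heterotrimeric kinesin that carries cargo into cilia, was at 993 and 984 normalised counts in the shALKBH5 libraries, against 1379 and 1353 in the shNC libraries. It had the smallest p of the 71 members, with a log2 fold change of -0.47 ± 0.0450 (adjusted p 0.0136 in limma-trend), or 1.38-fold lower. Its partner KIF3A was at 381 and 372 in shALKBH5, against 477 and 433 in shNC libraries, separated between groups but not past the threshold (-0.27; limma-trend adjusted p 0.131), and KIF3C, which pairs with KIF3A in place of KIF3B, was at -0.15. KIF3B lies on chromosome 20 from 32277664 to 32335011 (plus strand).

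KIF16B, which moves early endosomes, was at 158 and 165 in the shALKBH5 libraries, against 256 and 241 in the shNC libraries. This was the largest fall among the 9, at -0.62 ± 0.0970 (limma-trend adjusted p 0.0391) or 1.53-fold, and the groups were well apart. KIF5C, a conventional kinesin heavy chain known mostly from neurons, was at 279.7 and 283 in the shALKBH5 libraries, against 373 and 409.7 in the shNC libraries (-0.47 ± 0.0826; limma-trend adjusted p 0.0476). KIF5B, the heavy chain found in most tissues, was far more abundant, at 4524 and 4425 in shALKBH5, against 4960.2 and 4715 in shNC libraries, and its log2 fold change of -0.11 did not pass; KIF5A was at 0.04. KIF16B lies on chromosome 20 from 16272104 to 16573434 (minus strand) and KIF5C on chromosome 2 from 148875250 to 149026759 (plus strand).

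KIF21B, a motor that pauses microtubule growth, lay nearest outside the threshold of all members, at 405 and 394 in shALKBH5, against 520.3 and 505 in shNC libraries (-0.36; limma-trend adjusted p 0.0509), while its paralog KIF21A was at 0.16. KIF17, another ciliary and dendritic motor, was at -0.49 and KIF7, a ciliary regulator of Hedgehog signalling, at -0.45, both with at most 86.6 normalised counts in any library. KIF7 overlaps TICRR on the other strand, which averaged 1068 normalised counts and fell (-0.32, limma-trend adjusted p 0.0344). The part of this overlap in the KIF7 value was not tested. KIF1C and KIF1B, carriers of vesicles and organelles, were at -0.04 and -0.06. KIF27 and KIF12 had log2 fold changes of -0.33 and -0.30, KIF13A and KIF13B of -0.08 and -0.07, KIF9 of -0.03, KIF26A of 0.01 and KIF24 of 0.07, and they did not pass. KIF1A, KIF6, KIF19 and KIF26B stayed under 50 in every library; KIF19 was at 8.11 and 11.01 in shALKBH5, against 23.8 and 23.5 in shNC libraries. KIF1BP, an adaptor that binds kinesins and is no motor, was at 792 and 651 in shALKBH5, against 613 and 663 in shNC libraries. The median over the 24 motors was -0.13, 13 (54.2%) lay lower in both shALKBH5 libraries and 1 (KIF21A, 4.17%) higher. Over all genes tested 25.6% lay lower and 25.0% higher, and among those averaging 50 or more 30.8% and 32.9%.

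The members spanned a wide range of levels, compared here as mean normalised counts per kilobase of gene length in the deposited table. CCNB1 was highest, at 1885 in shALKBH5 and 1654 in shNC libraries, then TPX2, at 1549 in shALKBH5 and 1323 in shNC libraries. CENPX, a DNA-binding subunit shared with the Fanconi pathway, came next, at 1292 in shALKBH5 and 1243 in shNC libraries. The median mitotic motor was at 226 in shALKBH5 and 233 in shNC libraries, the median transport or ciliary motor at 46.1 in shALKBH5 and 46.5 in shNC, and the median inner centromere gene at 130.4 in shALKBH5 and 153 in shNC. CENPB took place 4 in shALKBH5, at 874, and place 7 in shNC, at 751. AURKB, CDK1 and PLK1 were at 834, 819 and 817 in shALKBH5, where the libraries of CDK1 overlapped in range with those of AURKB and of PLK1 and the AURKB libraries lay above the PLK1 libraries, and at 898, 804 and 725 in shNC libraries. CENPA took place 25 of 71 in shALKBH5 and place 21 in shNC, and KIF2A place 38 in shALKBH5 and place 30 in shNC.

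**Figure D3:**
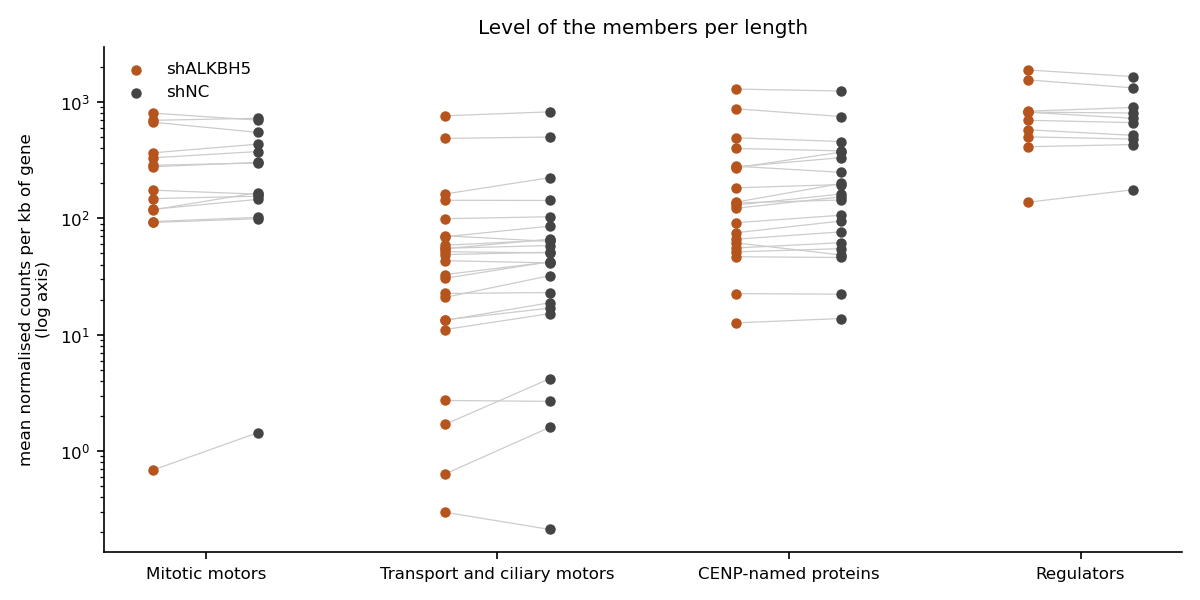
Mean normalised counts per kilobase (log axis) of the members in shALKBH5 and, to its right, shNC libraries, by role (KIF1BP and CENPS-CORT are not drawn), with a line joining the same gene. Regulators lie between 138 and 1885 in shALKBH5, and transport motors reach down below 1.

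Longer protein-coding genes had lower fold changes, and so did longer members outside the transport motors. Among 64 members averaging 50 normalised counts or more, Spearman's rho between gene length and log2 fold change was -0.20, and among 11577 protein-coding genes of that level it was -0.14. It was -0.25 over the 44 members that are not transport or ciliary motors, and 0.23, of the other sign, over the 20 that are. Genes are not independent replicates and the points share the same 4 libraries. Of 33 members of 5000 bases or more, 5 fell and 0 rose, with a median of -0.11, against a median of -0.02 over 6187 protein-coding genes of that length, of which 5.01% fell and 3.73% rose. From 3000 to under 5000 bases the median was -0.06 over 19 members and 0.02 over 3222 genes, and under 3000 bases -0.01 over 12 members and 0.05 over 2168 genes. The part of gene length in the fold changes was not tested.

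**Figure D4:**
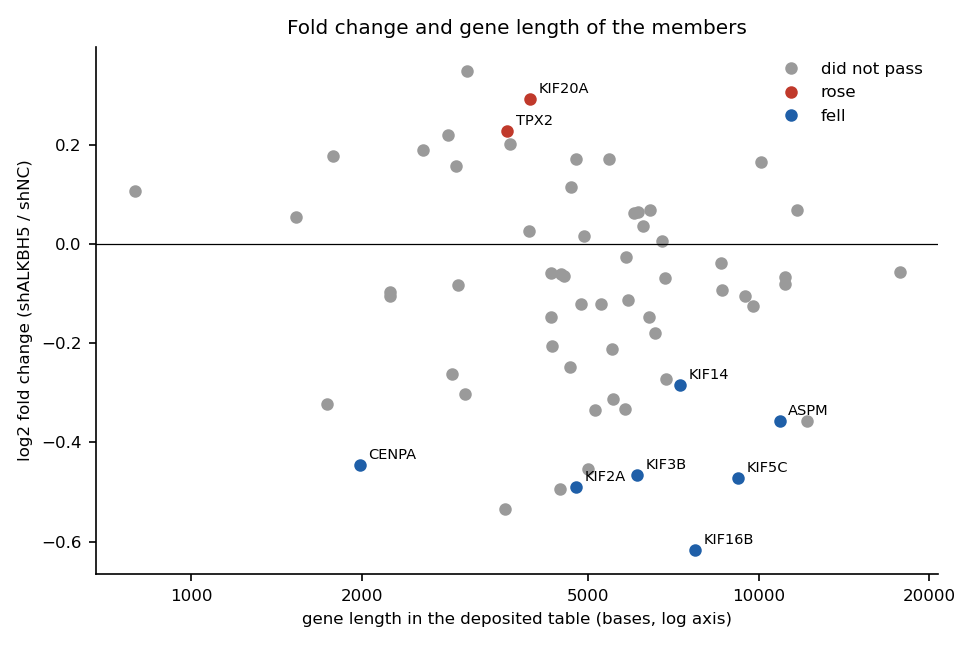
Log2 fold change (shALKBH5 over shNC) against gene length (bases, log axis) for 64 members, with those that rose in red and those that fell in blue. TPX2 and KIF20A are under 5000 bases long, while ASPM, KIF14, KIF3B, KIF5C and KIF16B are longer and CENPA and KIF2A shorter.

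Other genes of mitosis and kinesin transport, 137 in 12 lists, gave 6 that rose, 6 that fell and 125 that did not pass in limma-trend (8.76% passed, against 7.9% of genes averaging 50 or more), with a median of -0.01. Other tests gave more that were lower: 8 were higher and 22 lower in edgeR, against 10.4% of its genes in each direction. DESeq2 gave 6 and 11, against 6.38% and 5.56% of the genes it gave an adjusted p. With libraries scaled to equal totals 6 rose and 16 fell, where 787 and 1272 of all genes did. Both shALKBH5 libraries lay above both shNC libraries in 37 of the genes (27.0%) and below in 52 (38.0%). Among all genes averaging 50 or more, 32.9% lay above and 30.8% below. In the outer kinetochore list (13 genes), SPC24, a subunit of the microtubule-binding NDC80 complex, was at 847 and 855 in the shALKBH5 libraries, against 623 and 564 in the shNC libraries, and rose by 0.52 on the log2 scale. KNL1, the scaffold on which BUB1 docks, fell by 0.34 on that scale, and DSN1, a subunit of the MIS12 complex that CENPC and CENPT bind, fell by 0.40. OIP5, a subunit of the complex that licenses CENP-A loading, was at 351 and 353 in the shALKBH5 libraries, against 219.7 and 241 in the shNC libraries, and rose by 0.61, opposite in sign to CENPA. HJURP and MIS18A, which act in the same loading step, did not pass.

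Among 21 spindle and midzone genes, CKAP5, a microtubule polymerase, rose by 0.28 (log2) and CEP55, an abscission protein that also binds the midbody, by 0.27, and TUBB4B, a beta-tubulin with near-identical paralogs that can share its reads, fell by 0.19. NCAPD2, a condensin subunit, rose by 0.33 (1 of 9 in its list) and CDC25B, the phosphatase that starts activation of CDK1, by 0.27 (1 of 17 mitotic entry genes). E2F8, a repressor of cell cycle genes, was at 364 and 407 in the shALKBH5 libraries, against 636 and 706 in the shNC libraries, a log2 fold change of -0.80 ± 0.0894 (adjusted p 0.0195 in limma-trend). LIN52, a DREAM and MuvB subunit, fell by 0.54, and the other 14 transcription factor genes did not pass in limma-trend. Of the list of 16, edgeR passed 6 and DESeq2 3, all lower, with FOXM1, LIN9, E2F1 and LIN54 added in edgeR and FOXM1 in DESeq2. Over all genes, 10.4% were lower in edgeR and 5.56% of those DESeq2 gave an adjusted p. FOXM1, named after its values were seen, was at 1293 and 1217 in shALKBH5, against 1502 and 1545 in shNC libraries (-0.28; limma-trend adjusted p 0.0511). The centriole gene CEP152 fell by 0.39, and of the lists of spindle checkpoint (8), chromosomal passenger (3), APC/C (19), cohesin (13) and kinesin light chain and adaptor genes (7) 0 genes passed in limma-trend. In that order, 1, 1, 5, 4 and 1 had an unadjusted p under 0.05 (21.4% of all genes tested did), and 1, 0, 2, 3 and 0 passed in edgeR (20.8% of its genes) and 0, 0, 1, 1 and 0 in DESeq2.

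**Figure D5:**
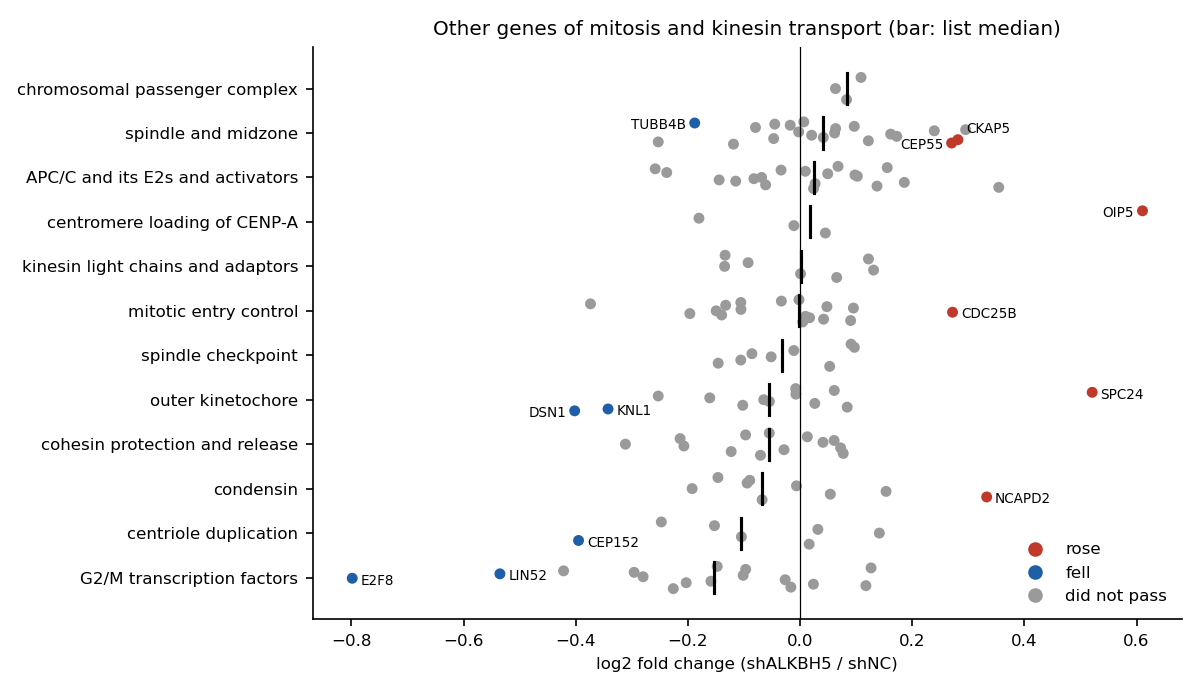
Log2 fold change (shALKBH5 over shNC) of 137 other genes in 12 lists, 1 point per gene, with a bar at each list's median and the names of the 12 genes that rose (red) or fell (blue). List medians lie between -0.15 for the transcription factors and 0.08 for the chromosomal passenger complex.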

How the data were processed

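Gene expression was measured by RNA-seq in 2 shALKBH5 and 2 shNC libraries of HCT116. The deposited signal per gene is a read count divided by a library size factor by the authors, as the values show, since each is a whole multiple of its library's step. The aligner, the counting tool and its strand setting are not stated in the sources at hand, and gene positions match GENCODE release 29 (GRCh38) for 71 of 71 members. The authors' deposited table also gives log2 fold changes and p-values. Dividing by each library's step gave whole reads for 100% of values within 0.001 reads.

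The test was limma-trend (limma 3.58.1, R 4.3.3) on log2(value + 1), with genes of at least 1 in at least 2 libraries and Benjamini-Hochberg adjustment over 25887 genes. Alternatives used edgeR 4.0.16 (quasi-likelihood) and DESeq2 1.42.0 on recovered reads, other pseudocounts, filters and scalings. Scripts were tested on simulated data. Replicates differed beyond sampling noise (chi-square per gene 2.28 in shALKBH5 and 3.00 in shNC).

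The members and lists were chosen with earlier results of these data known. Named were the 10 regulators, members and pathway genes past the threshold, members with the largest fold change, smallest p or extreme levels, and the pathway genes with the smallest p; further members are given by value for completeness. Positions of promoter windows and motifs come from RefSeq (GRCh38.p14).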

Additional observations from a re-analysis of the deposited data

How the results depend on the processing

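All 9 members that rose or fell kept their sign under every alternative run, and all 9 passed in edgeR and DESeq2 and in edgeR with any 1 library left out (this last chosen after seeing the data). The counts moved more. Of all genes, 1000 passed in limma-trend, against 3487 of genes averaging 50 normalised counts or more, 2059 with equal totals, 3428 in edgeR and 0 without the mean-variance trend (3903 at an unadjusted p under 0.05). Of the members, 2 rose and 7 fell, against 1 and 5 both with a pseudocount of 0.5 and with no filter on low values, 7 and 15 with only genes averaging 50 or more tested, 4 and 12 with equal totals, 7 and 16 in edgeR, 6 and 10 in DESeq2, and 0 and 0 without the trend. Of the pathway genes, 6 rose and 6 fell, against 10 and 23 with only genes averaging 50 or more tested, 6 and 16 with equal totals, 8 and 22 in edgeR, 6 and 11 in DESeq2, and 0 and 0 without the trend.

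With the replicate number as a block, 111 genes passed in all, with 0 and 0 members and with 0 pathway genes higher and 1 lower. The labels do not say that numbers pair the libraries, and deviations of same-numbered libraries correlated at -0.0275 across genes. Leaving out each library in turn gave 0 to 2281 genes in limma-trend, with 0 to 6 members that rose and 0 to 13 that fell, and with 0 to 7 and 0 to 15 pathway genes. In edgeR, leaving out shALKBH5 library 1, shALKBH5 library 2, shNC library 1 and shNC library 2 gave 1967, 2228, 3016 and 3433 genes, 2, 6, 7 and 7 members that rose, 12, 12, 13 and 17 that fell, and 6, 8, 11 and 8 pathway genes that rose and 15, 16, 19 and 22 that fell. A lone library is then assumed to vary like the other group. The zeros came from limma-trend without shNC library 1 or 2, where 3859 and 4201 genes had an unadjusted p under 0.05. The causes were not tested.

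Sign changes were seen in genes near 0 or with few reads. With equal totals these were CDK1 at -0.0072, CENPL at -0.0167, CENPS at -0.0185, KIF26A at -0.0271 and KIF26B at -0.0231. With 1 library left out, log2 fold changes of those that changed sign ran, in limma-trend, from -0.0105 to 0.0625 for CDK1, -0.2127 to 0.0202 for CENPH, -0.1103 to 0.1431 for CENPL, -0.1222 to 0.15 for CENPS, -0.1685 to 0.0047 for CENPU, -0.0064 to 0.1157 for CENPX, -0.1983 to 0.0361 for KIF13A, -0.0859 to 0.0071 for KIF1C, -0.0703 to 0.2004 for KIF24, -0.0491 to 0.0613 for KIF26A, -0.2372 to 0.2557 for KIF26B, -0.0364 to 0.1068 for KIF5A, -0.6549 to 1.1682 for KIF6, -0.0685 to 0.0174 for KIF9, -0.0853 to 0.0632 for MIS18A and -0.0102 to 0.147 for TOP2A. In edgeR with 1 library left out, the values of opposite sign were CDK1 at -0.0133, CENPH at 0.0189, CENPL at -0.1165 and -0.0448, CENPS at -0.135 and -0.0946, CENPU at 0.0018, CENPX at -0.0082, KIF13A at 0.0349, KIF1C at 0.0037, KIF24 at -0.0561 and -0.0678, KIF26A at -0.0037 and -0.0506, KIF26B at -0.2491 and -0.0946, KIF5A at -0.0379, KIF9 at 0.0009 and 0.0165, MIS18A at 0.058 and 0.0473 and TOP2A at -0.0129. Members averaging under 50 normalised counts did not pass in limma-trend at this depth, and of them KIF19 passed in edgeR.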
